A study of Homo sapiens with 7 samples.

Results

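This comparison sets the Hi-C library of DNMT3B knockout cells after 4 d of auxin against the library of DNMT3B-intact cells after the same 4 d. Its members are 2 of the 7 libraries of the series, chosen by their titles, 1 for each genotype. All cells are DLD-1, an established colorectal adenocarcinoma line. The knockout cells carry the genotype DNMT1-AID;DNMT3b -/- in the labels, and the intact cells carry DNMT1-AID. Both genotypes thus have the auxin-inducible degron on DNMT1, and both libraries had received auxin at 500 nM, so the pair differs in DNMT3B on a background in which DNMT1 had been targeted for degradation. Whether the knockout line is 1 clone is not given in the sources used here, and differences between the lines other than DNMT3B cannot be told apart from the knockout. The same 2 lines were also compared untreated and after 10 d of auxin, with libraries that the 4 d pair does not share.

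DNMT1 copies methyl groups onto the newly made strand after replication and so maintains DNA methylation. DNMT3B is a de novo methyltransferase that can methylate DNA with no mark to copy, and it acts on repeats, among other targets. Inherited mutations of DNMT3B cause the ICF syndrome, in which the juxtacentromeric satellite blocks of chromosomes 1, 9 and 16 lose methylation and are prone to stretch and break. Hi-C ligates DNA ends that lay near each other in the nucleus. Contacts within a chromosome arm fall off with the separation of the joined sites, and contacts between arms cross the centromere. Contacts between chromosomes (trans contacts) join sites of different chromosomes.

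The knockout library held 133252390 contacts and the intact library 222645438, 1.67 times as many. With 1 library per group, differences have no replicate check and none was tested. Intervals given below are 95% intervals for counting error alone. Since the counts are large these are narrow, and the spread between cultures and between library preparations is unknown. A change by log2 0.1 or more, which is 7.18% upwards, was counted as a difference by the fold. Chromosome 8 stood apart in coverage: its contacts were 1.46 times as frequent in the knockout library as in the intact library, relative to the median chromosome, whereas the other 22 chromosomes lay between 0.975 and 1.02. The same excess was present in the untreated pair (1.45) and in the 10 d pair (1.46). At 4 d it covered both arms, with 1.41 for 8p and 1.52 for 8q among contacts within arms, against 0.954 to 1.04 in the other 39 arms. The main pooled results are therefore also given with chromosome 8 left out.

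Knockout cells made fewer contacts with neighbours at 5 to 20 Mb on the same arm and more with sites 50 Mb or farther away on the same arm, and they made more contacts with other chromosomes. At 50 Mb or more the share of contacts within arms was 1.58% in knockout cells, against 1.02% in intact cells, a fold of 1.55. The share of contacts with other chromosomes was 24.4% in knockout cells and 20.5% in intact cells, and it was higher on every chromosome. Below 5 Mb the pooled shares of contacts within arms differed little between the genotypes.

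Within arms, the bands of separation changed in different directions. From 0.1 to 1 Mb, where most contacts lie, knockout cells had 62.1% of within-arm contacts and intact cells 61.6%, a log2 difference of 0.013. From 1 to 2 Mb the shares were 9.31% in knockout cells and 9.41% in intact cells. From 2 to 5 Mb they were 8.30% in knockout cells and 8.50% in intact cells, and the knockout share was the lower in 33 of 41 arms, by the fold in 7 (17.1%). No arm differed by the fold in the first of these bands. That band holds most contacts, so the fold there takes a larger change in percentage points. Loops and topological domains were not measured, and the share of a band does not speak to them.

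The deficit in knockout cells lay at 5 to 20 Mb. From 5 to 10 Mb the share was 5.79% in knockout cells and 6.37% in intact cells (log2 -0.14). It was lower in 40 of 41 arms, and by the fold in 29 of them (70.7%). The exception, 17q, had 4.49% in knockout cells and 4.43% in intact cells. From 10 to 20 Mb the share was 6.22% in knockout cells and 6.81% in intact cells (log2 -0.13). It was lower in 35 of 41 arms, with 26 lower by the fold (63.4%) and 1 higher by the fold (2.44%), 19q. The lowest arm in both bands was 7p, with 4.74% in knockout cells and 5.84% in intact cells at 5 to 10 Mb, and with 4.92% in knockout cells and 6.16% in intact cells at 10 to 20 Mb. The short arms 10p, 9p and 5p followed it at 10 to 20 Mb, with log2 differences of -0.31, -0.27 and -0.27.

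The range from 20 to 50 Mb was mixed. Pooled, knockout cells had 6.66% and intact cells 6.32% (log2 0.076), with 27 of 38 arms higher, 13 of them by the fold (34.2%), and 4 lower by the fold (10.5%). The 15q arm was the highest, with 5.93% in knockout cells and 4.60% in intact cells. Next came 6p at log2 0.35 and 17q at 0.32. The Xq arm was the lowest, with 8.15% in knockout cells and 10.2% in intact cells (log2 -0.32), and 5p followed at -0.21. Arms thus crossed over from a deficit to an excess at different separations: 15q was lower at 10 to 20 Mb (-0.13) and higher beyond, while 5p was lower in each band from 2 to 50 Mb.

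Beyond 50 Mb the direction was shared by nearly all long arms. From 50 to 100 Mb the share was 1.51% in knockout cells and 0.981% in intact cells (log2 0.62, interval 0.62 to 0.63), higher by the fold in 22 of 23 arms (95.7%) and lower in 1 (4.35%). At 100 Mb or more, knockout cells had 0.071% and intact cells 0.040% (log2 0.83), and the 4 arms with enough contacts to be counted were all higher, 4q by 0.92, 2q by 0.88, 5q by 0.80 and 1p by 0.59. Over 50 Mb or more together, the median arm was higher by 0.62 and the SD over the 23 arms was 0.23.

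At 50 Mb or more, 9q and Xq stood apart from the other long arms. The 9q arm had 0.568% of its contacts there in knockout cells and 0.242% in intact cells, a fold of 2.35 (log2 1.23, interval 1.19 to 1.27), from 12855 contacts in knockout cells and 10336 in intact cells. It was the only arm above 2-fold, and the next, 3p, had 1.84% in knockout cells and 1.06% in intact cells (log2 0.79). The Xq arm had 1.264% in knockout cells and 1.362% in intact cells (log2 -0.11, interval -0.13 to -0.083), the only arm with a lower share. The arms of chromosome 1, which like chromosome 9 carries a large satellite block, were within the range of the rest, 1q at 0.64 and 1p at 0.48. Chromosome 16, the other carrier of such a block, has no arm with enough contacts at this separation.

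**Figure D1:**
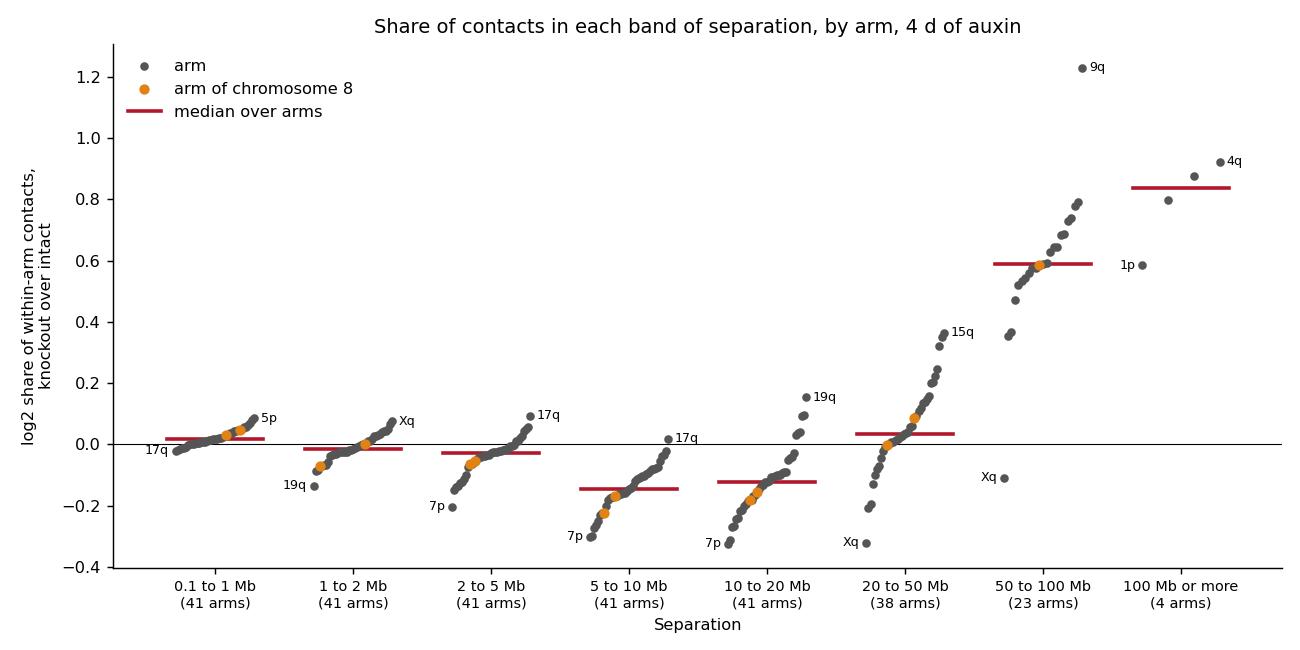
Each point is a chromosome arm and shows the log2 ratio of its share of within-arm contacts in a band of separation (x axis), knockout over intact, after 4 d of auxin. Red bars are medians over arms, orange points are the arms of chromosome 8, and the lowest and highest arm of each band are named. Most points lie below 0 at 5 to 20 Mb and above 0 at 50 Mb or more, where 9q lies at 1.23 and Xq at -0.11.

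With bands that opposed each other, the share at 10 Mb or more as a whole hardly differed. It was 14.5% in knockout cells and 14.1% in intact cells (log2 0.031, interval 0.030 to 0.032), higher in 22 of 41 arms and lower in 19. By the fold, 6 arms were higher (14.6%) and 10 lower (24.4%). The highest was 19q, with 5.20% in knockout cells and 4.64% in intact cells, a log2 difference of 0.17. Then came 15q (0.15), 6p (0.15), 12q (0.12) and 9q (0.12). The lowest was Xq, with 17.4% in knockout cells and 20.8% in intact cells (-0.26). Then came 5p (-0.24), 9p (-0.23), 10p (-0.20) and 21q (-0.17). Arms under 60 Mb had a median of -0.075 and longer arms a median of 0.046, so the pooled sign is that of the long arms.

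Leaving out chromosome 8 changed none of these pooled directions. Without it, 27 of 39 arms were lower by the fold at 5 to 10 Mb (69.2%). At 10 to 20 Mb 24 were lower (61.5%) and 1 was higher (2.56%). At 20 to 50 Mb 13 of 36 arms were higher (36.1%) and 4 lower (11.1%). At 50 to 100 Mb 21 of 22 were higher (95.5%) and 1 was lower (4.55%). For contacts at 10 Mb or more, 6 of 39 arms were higher (15.4%) and 10 lower (25.6%), and the pooled log2 difference was 0.030. For contacts at 50 Mb or more, knockout cells had 1.59% and intact cells 1.02%. The arms of chromosome 8 themselves followed the others, with 8q at log2 0.59 at 50 Mb or more and at -0.16 at 10 to 20 Mb.

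The balanced signal, in which every bin is scaled to the same total, gave the same shape. Balanced contact per pair of bins was lower in knockout cells in 24 of 31 intervals of separation. These included every interval below 5 Mb, with log2 -0.093 at 1 to 1.25 Mb and -0.15 at 4 to 5 Mb. The lowest ratio, log2 -0.27, lay at 10 to 12.6 Mb. Every interval from 31.6 Mb on was higher in knockout cells, up to 0.89 at the farthest, 126 to 149 Mb. Without chromosome 8 the lowest ratio was -0.26 and the highest 0.89, at the same separations. At every separation the balanced ratios lay below those of the within-arm shares, such as -0.27 against -0.18 at 10 to 12.6 Mb. The total of a balanced bin also includes its contacts with other chromosomes, and that part was larger in knockout cells, as given below. A link between these differences was not tested.

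**Figure D2:**
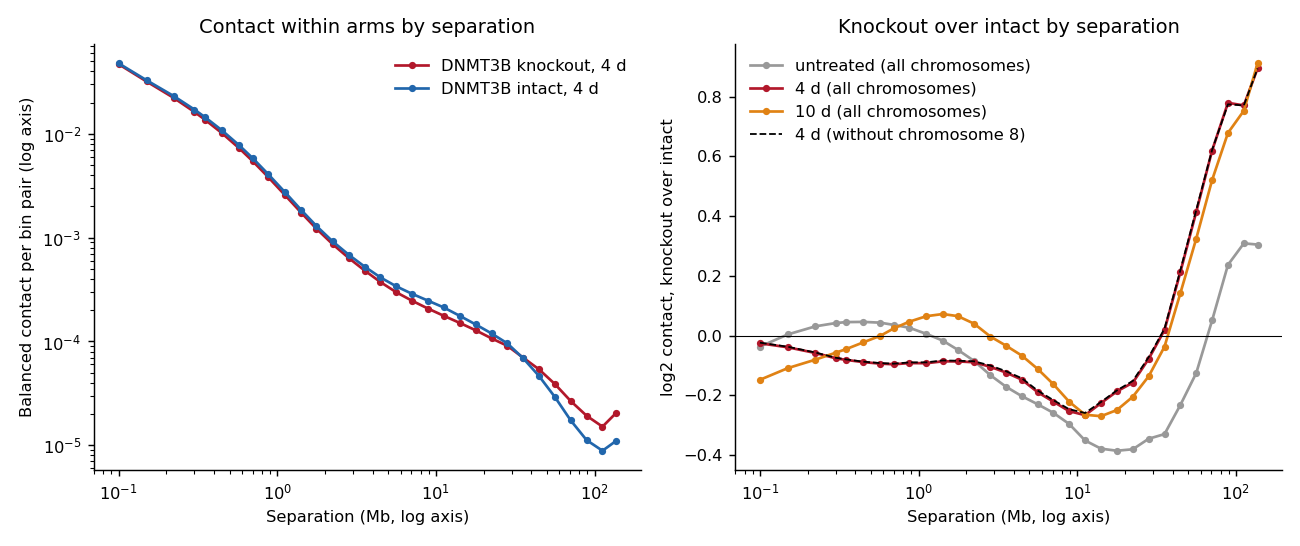
Left, balanced contact per pair of bins within arms against separation (both axes log) for knockout and intact cells after 4 d of auxin. Right, the log2 ratio of knockout over intact by separation for the untreated, 4 d and 10 d pairs, with the 4 d pair repeated without chromosome 8 as a dashed line. The 4 d ratio is lowest at -0.27 near 10 Mb, crosses 0 near 31.6 Mb and ends at 0.89.

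The slope of the fall-off, given as the exponent of contact against separation, depended on the range in the same way. From 0.5 to 5 Mb the exponent was -1.48 in knockout cells and -1.47 in intact cells, a difference of -0.014, with 28 of 41 arms steeper. The SD of the difference over arms was 0.037, larger than the difference itself. From 1 to 10 Mb knockout cells were steeper by -0.057, in 39 of 41 arms. From 5 to 50 Mb they were shallower, at -0.793 in knockout cells and -0.913 in intact cells, and 26 of 27 arms shared this direction. The exception was Xq, which was steeper by -0.12, and the largest change was that of 15q, at 0.26.

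How the arms ranked at 10 to 20 Mb was related to their gene content. Across 41 arms, the log2 difference in the share at 10 to 20 Mb and the number of protein-coding genes per Mb (RefSeq, GRCh38.p14) had a Pearson r of 0.61 and a Spearman rho of 0.50. Among the 10 most gene-dense arms the median difference was -0.042 with 6 lower, and among the 10 least gene-dense arms it was -0.19 with 9 lower. Cluster names in the authors' deposited annotation of the untreated intact library covered 38 arms. Across these, r was 0.68 (rho 0.60) with the share of bins in the clusters named A1 and A2. It was -0.71 (rho -0.64) with the share named B2/B3, and 0.50 (rho -0.0039) with the share named B4. The relation was not particular to this band. With gene density, r was 0.44 at 5 to 10 Mb, 0.48 at 20 to 50 Mb and -0.29 at 0.1 to 1 Mb. At 50 Mb or more, r with gene density was -0.095 over 23 arms. These are descriptions across arms of the same 2 libraries, and the features overlap with each other and with arm length.

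The trans share was higher in knockout cells on all 23 chromosomes, all by the fold (100%). Over all contacts it was 24.4% in knockout cells and 20.5% in intact cells, a fold of 1.19 (log2 0.25). The change ran from 0.14 on chromosome 14 to 0.25 on chromosome 7, with a median of 0.21 and an SD over chromosomes of 0.027. Chromosome 7 had 38.5% trans contacts in knockout cells and 32.3% in intact cells. Chromosome 14 had 42.7% in knockout cells and 38.7% in intact cells. The highest level in both genotypes was on chromosome 22, with 56.7% in knockout cells and 50.3% in intact cells, and the lowest was on chromosome 2, with 31.8% in knockout cells and 27.5% in intact cells. The small chromosomes 16, 17, 19, 21 and 22 changed by 0.18, 0.18, 0.17, 0.16 and 0.17, below the median, and chromosome 20 by 0.21. These are ratios, and in percentage points the order differed. Chromosomes 20 and 22 then rose by more than chromosome 7, and chromosomes 16, 17, 19 and 21 by less.

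The satellite-carrying chromosomes lay within the range of the others in their trans share. Chromosome 1 had 38.3% in knockout cells and 33.0% in intact cells, chromosome 9 had 43.1% in knockout cells and 37.2% in intact cells, and chromosome 16 had 48.8% in knockout cells and 43.0% in intact cells, changes of 0.21, 0.21 and 0.18. With every contact of chromosome 8 left out, the trans share was 23.3% in knockout cells and 19.8% in intact cells (log2 0.23), still higher on all 22 remaining chromosomes. Chromosome 8 itself had 36.1% in knockout cells and 32.1% in intact cells.

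**Figure D3:**
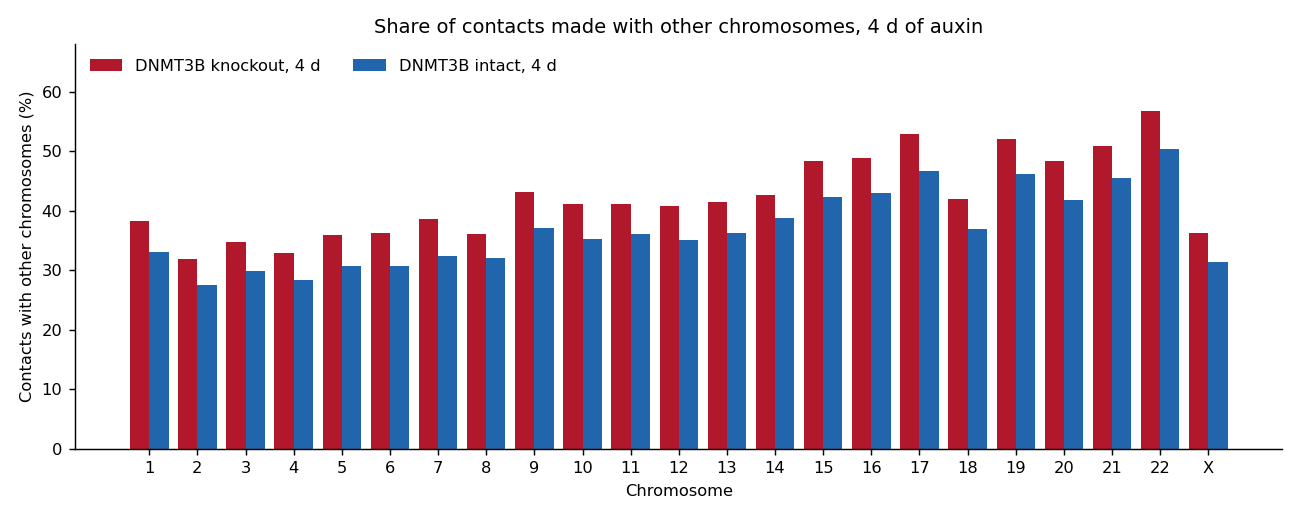
Bars give the share of each chromosome's contacts that were made with other chromosomes, in percent, for knockout cells (left bar of each pair) and intact cells (right bar) after 4 d of auxin. The left bar is the taller on all 23 chromosomes, with 56.7% in knockout cells and 50.3% in intact cells on chromosome 22 as the highest pair.

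Far contacts within chromosomes were also set against the trans level, since both were higher in knockout cells. Relative to the mean balanced contact between chromosomes, within-arm contact at 50 to 100 Mb was 6.26 in knockout cells and 5.2 in intact cells. At 100 Mb or more it was 3.23 in knockout cells and 2.23 in intact cells. Contact between arms at the same distances showed no such gap. It was 5.26 times the trans level in knockout cells and 5.37 times in intact cells at 50 to 100 Mb, and 3.67 times in knockout cells and 3.61 times in intact cells at 100 Mb or more. At 10 to 20 Mb, within-arm contact was 30.6 times the trans level in knockout cells and 42.6 times in intact cells.

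Contact across the centromere was lower in knockout cells relative to contact within arms. The inter-arm ratio divides the mean balanced contact across the centromere by the mean inside the arms, at separations of 20 to 50 Mb. It was 0.729 in knockout cells and 0.787 in intact cells (log2 -0.11). Of the 18 chromosomes with enough bin pairs, 16 were lower, 13 of them by the fold (72.2%), and 1 was higher by the fold (5.56%). Over chromosomes the mean was -0.12 and the SD 0.15. Without chromosome 8 the pooled log2 difference was -0.11, with 15 of 17 chromosomes lower. The lowest was chromosome 3, at 0.771 in knockout cells and 0.980 in intact cells (-0.35), followed by chromosome 5 at -0.30 and chromosome 16 at -0.29. Chromosomes 12, 4, 1, 2, 10, 6, 19, 18, 17 and 9 followed between -0.22 and -0.10.

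Chromosomes 8, 20 and 7 were closer to 0, at -0.055, -0.0093 and -0.0079, and the counting intervals of 20 and 7 held 0. Chromosome 11 was slightly higher at 0.050. Chromosome X went the other way, with 0.579 in knockout cells and 0.471 in intact cells (log2 0.30). At 20 to 50 Mb, balanced contact within the arms of chromosome X was lower in knockout cells by log2 -0.28, and contact between its arms was higher by 0.016.

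At 20 to 50 Mb the 3 satellite-carrying chromosomes all had a lower ratio. Chromosome 1 had 0.719 in knockout cells and 0.832 in intact cells, chromosome 9 had 0.804 in knockout cells and 0.863 in intact cells, and chromosome 16 had 0.773 in knockout cells and 0.942 in intact cells. Their median was -0.21, against -0.11 for the other 15 chromosomes, which ranged from -0.35 to 0.30, so the 3 lay inside the range of the rest. With each separation matched, their median was -0.45 against -0.16, and chromosome 9 was the lowest of the 18 at -0.57. The direction of chromosome 9 depended on the range: at 10 to 40 Mb it was the highest of the 18, at 0.783 in knockout cells and 0.691 in intact cells (log2 0.18), and there the mean of the 3 was -0.049 against -0.045 for the others. At 50 to 100 Mb chromosome 9 was the lowest of 14, at 0.689 in knockout cells and 1.35 in intact cells (log2 -0.96). That value contains the high far contact within 9q described above, since its balanced within-arm contact there was higher by log2 1.12.

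The ratio at 20 to 50 Mb and the share of contacts between arms at all separations went in opposite directions. Contacts between arms made up 4.65% of all contacts within chromosomes in knockout cells and 4.19% in intact cells (log2 0.15), a higher share on 16 of 18 chromosomes. At 50 to 100 Mb, balanced contact between arms was higher in knockout cells on 18 of 18 chromosomes (pooled log2 0.22), and contact within arms was higher on 13 of 14 (0.52). At 20 to 50 Mb, contact between arms was lower on 14 of 18 (-0.15), with contact within arms at -0.039 and 9 chromosomes each way. At 10 to 20 Mb both were lower, by -0.25 between arms and -0.23 within arms.

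**Figure D4:**
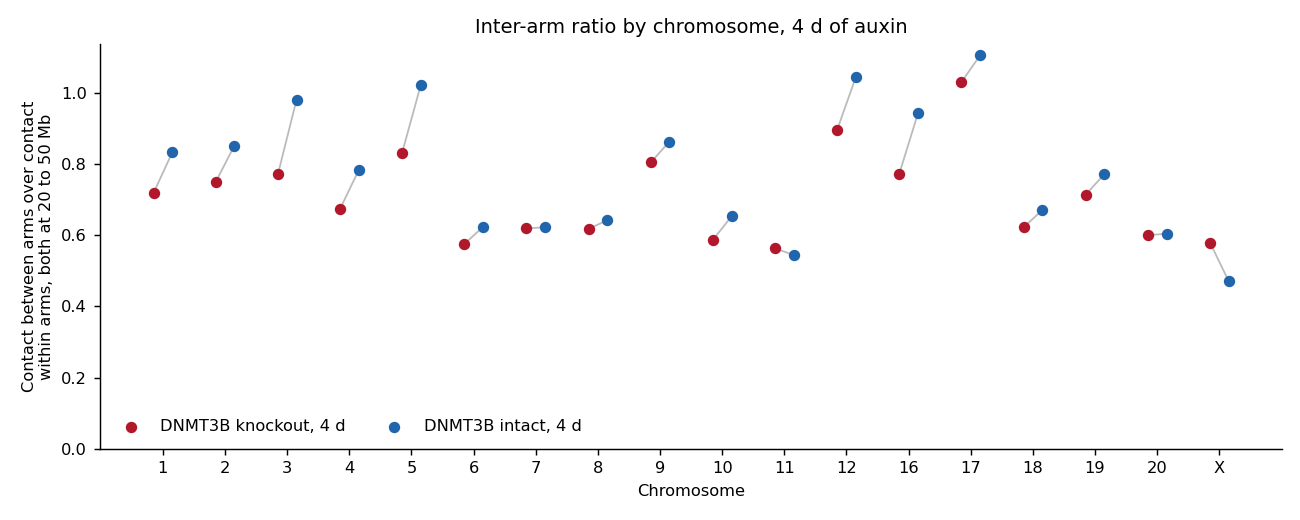
Points give the inter-arm ratio (balanced contact across the centromere divided by contact inside the arms, at 20 to 50 Mb) of each of 18 chromosomes after 4 d of auxin, with knockout cells at the left and intact cells at the right of each pair. The left point is the lower on 16 chromosomes, and on chromosomes 11 and X it is the higher.

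The balanced contact of each pair of the 23 chromosomes was compared relative to the median pair. By the fold, 29 pairs were higher in knockout cells (11.5%) and 13 lower (5.14%). All 22 pairs with chromosome 8 were among the 29, and the highest 5 pairs were 6 with 8 (log2 0.26), 7 with 8 (0.25), 8 with 15 (0.25), 3 with 8 (0.24) and 2 with 8 (0.24). These are the pairs of the chromosome with raised coverage. When raw counts were divided by the trans totals of both chromosomes, 6 with 8 was at 0.046 and no pair with chromosome 8 passed the fold. In all, 9 pairs were higher by the fold (3.56%) and 5 lower (1.98%). By construction this division largely takes out a change that a chromosome shares over all its partners. It therefore cannot show whether chromosome 8 had such a change.

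Without chromosome 8, 7 of 231 pairs were higher by the fold (3.03%) and 12 lower (5.19%). The pair 6 with 7 was the highest at 0.22, with a level of 0.957 times the median pair in knockout cells and 0.825 in intact cells. Pairs of small chromosomes followed, 19 with 20 at 0.19, 17 with 20 at 0.17, 16 with 20 at 0.14 and 19 with 21 at 0.13. The pair 19 with 20 was at 2.55 times the median pair in knockout cells and at 2.24 in intact cells. From raw counts it was the highest, at 0.21, with 6 with 7 at 0.14.

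Chromosome 14 was a member of each of the 4 lowest pairs. It also had the smallest rise in trans share (0.14), and both results draw on the same trans contacts. The pair 14 with 22 was at 1.30 times the median pair in knockout cells and 1.53 in intact cells (log2 -0.23), and 14 with 21 was at 1.25 times the median pair in knockout cells and 1.46 in intact cells (-0.21). Then came 14 with 17 (-0.14), 14 with 18 (-0.13) and 2 with 19 (-0.13). Without chromosome 8, all 21 pairs with chromosome 14 were lower, but from raw counts divided by trans totals 9 were higher and 12 lower, and 14 with 22 was at -0.13. Additive effects of single chromosomes accounted for 67.7% of the variance over pairs in the balanced signal and for 35.2% without chromosome 8, with the largest effects on chromosome 8 (0.20) and chromosome 14 (-0.088).

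**Figure D5:**
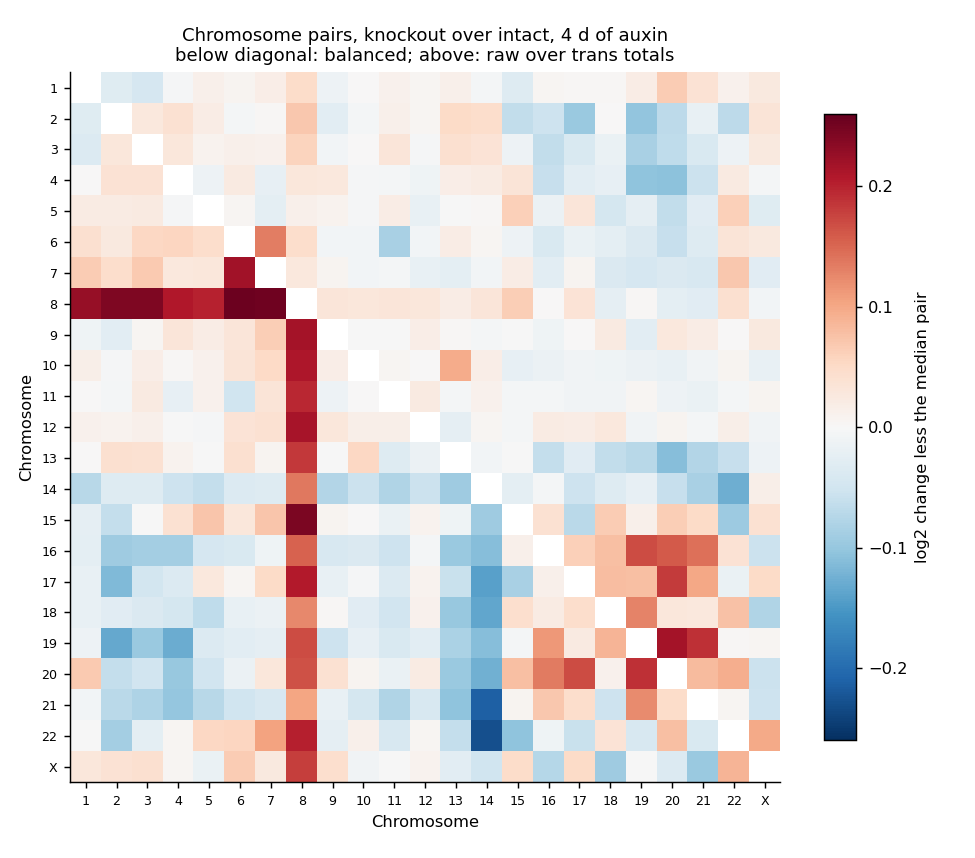
Each cell is a pair of chromosomes after 4 d of auxin, coloured by its log2 change, knockout over intact, less that of the median pair. Cells below the diagonal use the balanced signal and those above it use raw counts divided by the trans totals of both chromosomes. Below the diagonal the row and column of chromosome 8 are red (median 0.20) and those of chromosome 14 mostly blue (median -0.074), and above it neither stands out, while pairs such as 19 with 20 are red in both.

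Contact within the list of acrocentric chromosomes, whose short arms carry the ribosomal RNA genes, was lower in knockout cells. Relative to all other pairs, the mean of the 10 pairs among 13, 14, 15, 21 and 22 had a log2 of 0.36 in knockout cells and 0.47 in intact cells, a difference of -0.11, and 9 of the 10 pairs were lower than the median pair. The pairs with chromosome 14 were 14 with 22 (-0.23), 14 with 21 (-0.21), 13 with 14 (-0.093) and 14 with 15 (-0.092). The others were 13 with 21 (-0.10), 15 with 22 (-0.10), 13 with 22 (-0.061), 21 with 22 (-0.040), 13 with 15 (-0.011) and 15 with 21 (0.0067). From raw counts the difference was -0.045, with 8 of 10 pairs lower.

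The 3 pairs of satellite-carrying chromosomes were slightly lower, 9 with 16 at -0.041, 1 with 16 at -0.025 and 1 with 9 at -0.010. All were smaller than the SD over all pairs of 0.083. For the list, the log2 over other pairs was 0.070 in knockout cells and 0.11 in intact cells, a difference of -0.036. Small gene-rich chromosomes (16, 17, 19, 20 and 22) were at 1.27 in knockout cells and 1.22 in intact cells, a difference of 0.048, with 7 of 10 pairs higher than the median pair. Their 3 lower pairs were those of chromosome 22 with 17 (-0.058), 19 (-0.041) and 16 (-0.011). Gene-poor chromosomes (4, 5, 13, 18 and X) were at -0.75 in knockout cells and -0.70 in intact cells. Of their 10 pairs, 8 were lower than the median pair. Without chromosome 8, 6 were lower and 4 higher, and from raw counts 9 were lower and 1 higher.

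Before auxin and after 10 d, the same genotypes differed in trans share in the same direction. The untreated knockout library is labelled DNMT1-AID in its genotype field and was taken as knockout from its title, and it shared the chromosome 8 excess of the other knockout libraries. Untreated, the trans share was 25.2% in knockout cells and 21.4% in intact cells (log2 0.24). At 4 d it was 24.4% in knockout cells and 20.5% in intact cells. At 10 d it was 29.2% in knockout cells and 26.2% in intact cells (0.16). All 23 chromosomes were higher at each time.

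Pooled, the excess at 50 Mb or more was small before auxin. Untreated, the share was 1.31% in knockout cells and 1.25% in intact cells (log2 0.072). At 4 d it was 1.58% in knockout cells and 1.02% in intact cells (0.63), and at 10 d it was 2.26% in knockout cells and 1.58% in intact cells (0.51). The intact library had its lowest share of the 3 times at 4 d, and the knockout library its lowest untreated. The untreated pair had a trans difference close to that of the 4 d pair, with a smaller difference at 50 Mb or more. At 100 Mb or more, the log2 difference was already 0.36 untreated, with 0.83 at 4 d and 0.80 at 10 d. All 4 arms counted there were higher at each time. Set against the trans level, within-arm contact at 50 to 100 Mb was lower in knockout cells before auxin, at 5.06 in knockout cells and 6.07 in intact cells, and higher at 10 d, at 7.01 in knockout cells and 5.77 in intact cells. At 100 Mb or more this level was higher in knockout cells at each time. It was 2.51 in knockout cells and 2.37 in intact cells untreated, and 4.01 in knockout cells and 2.60 in intact cells at 10 d. At 5 to 20 Mb the deficit was present at each time, with -0.24 untreated, -0.13 at 4 d and -0.15 at 10 d. Untreated, it continued through 20 to 50 Mb, where 37 of 38 arms were lower, and the balanced ratio turned positive from 63.1 Mb on, against 31.6 Mb at 4 d and 39.9 Mb at 10 d.

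The differences by arm and by pair were correlated across the times, more closely for some measures than for others. For the share at 10 Mb or more, the log2 differences of the 41 arms at 4 d correlated with those of the untreated pair (Pearson r 0.88, Spearman rho 0.87) and of the 10 d pair (0.86 and 0.88). In that share, 19 of 41 arms had the same sign at 4 d as untreated, and 31 of 41 the same as at 10 d. For the share at 50 Mb or more the ranks were less alike, with a Spearman rho of 0.52 over 20 arms with the untreated pair and of 0.48 over 23 arms with the 10 d pair, where Pearson r was 0.91 and 0.84. For 18 inter-arm ratios r was 0.89 with the untreated pair and 0.80 with the 10 d pair. For the 231 pairs without chromosome 8 it was 0.64 with the untreated pair and 0.73 with the 10 d pair. These points share the 2 cell lines and the build, but no library. In Xq the share at 50 Mb or more changed by -0.45 untreated, -0.11 at 4 d and 0.054 at 10 d, the lowest arm each time, and in 9q by 0.59, 1.23 and 0.88, the highest each time.

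Some of the named pairs recurred as well, but not all. The pair 14 with 22 had -0.22 untreated, -0.23 at 4 d and -0.19 at 10 d, and the pair 6 with 7 had 0.16, 0.22 and 0.24. The pair 19 with 20 had 0.11 untreated, 0.19 at 4 d and 0.27 at 10 d. In contrast, 19 with 21 was lower untreated (-0.063) and higher at 4 d (0.12) and 10 d (0.12). The acrocentric list had -0.20 untreated, -0.11 at 4 d and -0.088 at 10 d. The pooled inter-arm ratio had 0.0087 untreated, -0.11 at 4 d and -0.11 at 10 d.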

How the data were processed

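Per the labels' protocols, an Arima Hi-C kit was used and both ends of each fragment were sequenced. The submitters' processing notes name BWA and the build hg38. No version, pair filter or balancing program is stated there. The deposited tables give, per the file headers, the raw count of contacts, the authors' balanced signal and the number of valid pairs of 50 kb bins. They are split by separation within arms, within chromosomes and between arms, and by pair of chromosomes. Separations start at 100 kb. Balancing equalises the total of each bin. It need not take out the whole of a copy-number difference for each pair of chromosomes.

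Chromosomes 1 to 22 and X were used. Shares came from raw counts with exact binomial (Clopper-Pearson) 95% intervals, log2 ratios of shares with intervals from the same counts, and decay, inter-arm ratios (at least 10000 bin pairs of each kind) and pair levels from the balanced signal. Arms needed 1000 counts in both libraries, and a band of separation in an arm a mean of 1000. The exponent is the slope over 20 log-spaced bins. Chromosome lists and features were chosen with earlier results of these data known. The named features are the 5 highest and lowest arms and pairs, with and without chromosome 8, every satellite-carrying and acrocentric pair, and each chromosome for trans share and inter-arm ratio. Other arms and pairs were named after their values were seen. Genes were counted by arm from the RefSeq table of GRCh38.p14. Python 3.11.15, numpy 2.4.6, pandas 2.3.3 and SciPy 1.17.1 were used, and the measures were tested on simulated libraries. Alternatives changed the boundary, the count measure, the range of separations, the chromosomes used and the treatment of chromosome effects. Cluster codes at other numbers of clusters were not used here.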

Additional observations from a re-analysis of the deposited data

Results flagged for a closer look

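Several genotype differences had the opposite sign at another time, and the difference between times was not tested. The share of within-arm contacts at 10 Mb or more was higher in knockout cells at 4 d (log2 0.031), lower untreated (-0.24) and lower at 10 d (-0.029). The share under 1 Mb was higher in knockout cells at 4 d (0.013) and lower at 10 d (-0.0071). The inter-arm ratio was lower in knockout cells at 4 d (-0.11) and slightly higher untreated (0.0087). Contact among the small gene-rich chromosomes was higher in knockout cells at 4 d (0.048) and lower untreated (-0.0095). The untreated sign depended on the measure. It was higher in knockout cells without chromosome 8 (0.011), from raw counts (0.033) and for the median pair (0.022). Contact among chromosomes 1, 9 and 16 was lower in knockout cells at 4 d (-0.036) and higher untreated (0.0061), where the counting interval held 0. Within-arm contact at 50 to 100 Mb relative to the trans level was higher in knockout cells at 4 d (6.26 in knockout cells and 5.2 in intact cells) and lower untreated (5.06 in knockout cells and 6.07 in intact cells). At 100 Mb or more, this level was higher in knockout cells untreated as well (2.51 in knockout cells and 2.37 in intact cells). With 1 library per genotype and time, these signs describe the libraries.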

How the results depend on the processing

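No paired analysis was possible because each group holds 1 library. Most alternatives moved a value, and 2 of 50 turned a sign. For shares, ratios, exponents and lists, moved means by more than the narrow counting interval. The 50 include alternatives for counts of pairs or arms, which have no such interval and cannot turn a sign. The share at 10 Mb or more (log2 0.031) was -0.019 with a boundary of 5 Mb and 0.17 with 20 Mb, 0.010 from balanced sums, 0.030 without chromosome 8 and 0.057 over whole chromosomes. The exponent (-0.014) was 0.12 at 5 to 50 Mb, -0.057 at 1 to 10 Mb, -0.010 from raw counts and -0.013 without chromosome 8. By construction these boundaries and ranges weigh the opposed bands of separation differently. The trans share (0.25) was 0.25 from balanced sums, 0.23 without chromosome 8 and 0.25 without chromosome X. The share under 1 Mb (0.013) was 0.024 under 0.5 Mb, 0.0096 under 2 Mb, 0.018 from balanced sums and 0.013 without chromosome 8. The inter-arm ratio (-0.11) was -0.048 at 10 to 40 Mb (where chromosome 9 turned to 0.18), -0.22 with matched separations and -0.13 from raw counts. For the lists, raw counts, the median pair and leaving out chromosome 8 gave 0.095, 0.11 and 0.066 for small gene-rich, -0.045, -0.23 and -0.090 for acrocentric, and -0.034, -0.015 and -0.032 for gene-poor chromosomes. For chromosomes 1, 9 and 16 raw counts gave -0.013 and leaving out chromosome 8 gave -0.020. Pairs higher by the fold (29) were 9 from raw counts, 7 without chromosome 8 and 8 with chromosome effects removed. Pairs lower (13) were 5 from raw counts and 5 with chromosome effects removed. Arms higher and lower (6 and 10) were 21 and 4 with a boundary of 20 Mb. Added after seeing the data, the share at 5 to 20 Mb (-0.13) was -0.14 from balanced sums and -0.14 over whole chromosomes. That at 50 Mb or more (0.63) was 0.61 from balanced sums, 0.63 without chromosome 8 and 0.42 over whole chromosomes. Depth did not limit the pooled values, and the number of libraries did.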

Other observations

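A single separation between the arms of chromosome 16, 11.8 Mb, held a high number of contacts in every library. In knockout cells at 4 d it held 2812 contacts over 16 pairs of bins, 2.60% of all contacts between these arms, and in intact cells 2255 contacts over 10 pairs of bins, 1.09%. Per pair of bins this was 176 in knockout cells and 226 in intact cells, against 4.66 in knockout cells and 12.2 in intact cells at separations within 0.5 Mb of it. It lies below 20 Mb and so does not enter the inter-arm ratio at 20 to 50 Mb, but it enters the ratio at 10 to 40 Mb and the share of contacts between arms.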
